A study of Mus musculus with 4 samples.

Results

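The regions described here are the stretches of an m6A map that lie in introns only. The map came from mouse embryonic stem cells of the feeder-free E14K line, and it lists places where RNA bearing N6-methyladenosine (m6A) was counted in wild-type cells and in cells without the kinases Gsk-3α and Gsk-3β, labelled Gsk-3 DKO and called double knockout below. Both genotypes were grown for 14 days without the cytokine LIF, which holds such cells in self-renewal, and each gave 1 m6A library and 1 input library, of which only the m6A libraries were analysed here. Nothing in the labels says whether the double knockout was 1 clone, and neither genotype had a replicate, so every comparison below is between 2 libraries and carries no p-value. A region was taken as intronic when at least 1 of its annotation rows said intron and none said coding exon, 5'UTR, 3'UTR or Genic, the label for non-coding transcripts. Of 6697 distinct regions, 1097 (16.4%) met this rule. Every row of 1045 of them said intron, and the other 52 also had a row naming a gene that the region lies upstream of.

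Introns are copied into the primary transcript and cut out by splicing, so most of their sequence is absent from mature mRNA. The writer complex, built around Mettl3 and Mettl14, adds m6A to the primary transcript in the nucleus, mainly at adenosines in a short motif whose commonest core reads GGACT in DNA letters. In mature mRNA the mark is known to be dense in long internal exons and around stop codons. Gsk-3 is a kinase best known for holding back Wnt and insulin signalling. RNA was selected here on oligo(dT) beads before the antibody step.

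Sequence could be read for 19 of the 1097 regions, those that overlap the start-site window of a RefSeq transcript in GRCm38.p6 (250 bases before to 50 bases after a start). These are shown because they lie near an annotated transcription start although the deposited table calls them intronic. The 19 regions made 20 overlaps of 15 to 300 bases, 9 with a window of the host gene itself and 11 with a window of another gene. The start itself lay inside the region in 7 of the 20, 5 of them starts of the host gene (Igf2, Ccnd3, Tulp4, Gpr137 and Akt1s1). GGACT was searched on both strands, and the reverse complement of the motif does not overlap it. It was found in 6 of the 20 overlaps (30%), in each on the strand of the window and in Inppl1 on the other strand too. Over all 32851 windows, the same stretches held the motif on either strand in 22.0% on average and on the strand of the window in 11.9%. In Tcte2, Inppl1, Akt1s1 and Zfp335 the match lay before the annotated start of the window's transcript, which therefore does not hold it. In Dact2, Tcte2, Inppl1 and Zfp335 the window belongs to another gene, and the window of Inppl1 itself is on the - strand. Whether any match was methylated, or lay in the RNA that was counted, was not tested. Below, 30 bases around the first match in each of the 6 are given 5′ to 3′ on the strand of the window, with the motif in capitals.
Dact2 (window of Gm34510, chr17:14202967-14202996, + strand): gtggtctacagagggGGACTcgatgggcgc
Tcte2 (window of Afdn, chr17:13760343-13760372, + strand): cggctccggtgaGGACTcacgcctccggca
Inppl1 (window of Gm10602, chr7:101837754-101837783, + strand): ggaagcctccctGGACTccccgcggccact
Gpr137 (window of Gpr137, chr19:6941160-6941189, - strand): aaccaaggccagGGACTctgtgccactgca
Akt1s1 (window of Akt1s1, chr7:44850309-44850338, + strand): gcgccccgggcgGGACTtccggtcccgatc
Zfp335 (window of Zfp335os, chr2:164911219-164911248, + strand): gtcagtggttcactccccctccccGGACTc

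These 6 regions had 43 wild-type reads in Dact2, 39 in Tcte2, 35 in Inppl1, 34 in Gpr137, 30 in Akt1s1 and 28 in Zfp335. The median of all intronic regions was 35 (quartiles 22 and 73). Each of the 6 had 0 or 1 double-knockout read, as did 78.9% of all intronic regions. Over all 19 regions that overlap a window, 10 (52.6%) had no double-knockout reads, against 69.5% of all intronic regions at the same wild-type counts. The deepest of the regions holding a start of the host gene was Igf2, an imprinted growth factor gene, where chr7:142658627-142658958 had 141 wild-type reads against 1. It was followed by Ccnd3, which encodes a cyclin that drives cells into S phase, with 86 reads against 1 on chromosome 17, and neither overlap held the motif. Another 1 region, in an intron of H2afy2 at chr10:61774772-61774989 (90 reads against 5), overlapped a microRNA hairpin, that of Mir5108. The mature microRNA lies inside the region and is shown with its seed in capitals.
mmu-miR-5108 (chr10:61774795-61774813, + strand): gUAGAGCAcuggaugguuu

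The coordinates fit the GRCm38 build and not mm9, the build in the submitters' processing notes. Of 6035 rows with a gene identifier in the RefSeq table, 6025 (99.8%) lay within 5000 bases of that gene, and 1 region ended at base 90789403 of chromosome Y. Of 8 defining stem cell genes, 3 were listed (Pou5f1, Esrrb and Lin28a), and the other 5 were not in the table. The deposited count carries the genotype and not the library type in its header, so a count from input was not told apart from an m6A count. Fewer cells of a kind, less of a transcript per cell and less methylation of it cannot be told apart in these counts.

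The intronic regions lay in long genes and far from transcription starts. They fell in 966 genes, of 3882 named in the table. The 958 host genes found in the RefSeq table had a median length of 109 kb (quartiles 44.2 and 249 kb), and 52.8% of them were longer than 100.0 kb. Exonic regions are here all those overlapping a coding exon or a UTR, so regions crossing from exon into intron are included. Genes with an exonic region, numbering 2249, had a median of 25.5 kb with 15.1% over that length, and all 21896 protein-coding genes a median of 17.1 kb with 11.1%. Hosts of intronic regions were thus longer than genes known from their exons, as a description of 2 lists that share some genes. The rule for these regions itself asks for intron sequence. No background of intron length was set beside these lengths or the distances below.

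By the deposited distance, the regions lay from 184 bases to 1677 kb past the transcription start, with a median of 45.0 kb (quartiles 13.6 and 125 kb). The farthest was in Dmd, the dystrophin gene, which had 3 intronic regions of 22 wild-type reads against 0 each. Only 42 regions (3.83%) lay within 1 kb of the start, 274 lay at 100 to 500 kb and 51 beyond. Place along the gene was taken as the deposited distance over the gene's length in the RefSeq table. By this measure 340 of 1094 regions (31.1%) fell in the first 25% of the length and 213 (19.5%) in the last 25%. Where the listed transcript starts inside the RefSeq gene, the measure places a region too near the start. Whether this shaped the difference was not tested. Regions were 150 to 618 bases long (median 185), close to the median of 194 for exonic regions, and their wild-type density was 0.187 reads per base at the median, against 0.236 in exonic regions. On the autosomes and X they made up 12.8% (chromosomes 11 and 17) to 22.6% (chromosome 19) of all listed regions. Of the 51 on chromosome 19, 13 lay in the single gene Ahnak.

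**Figure D1:**
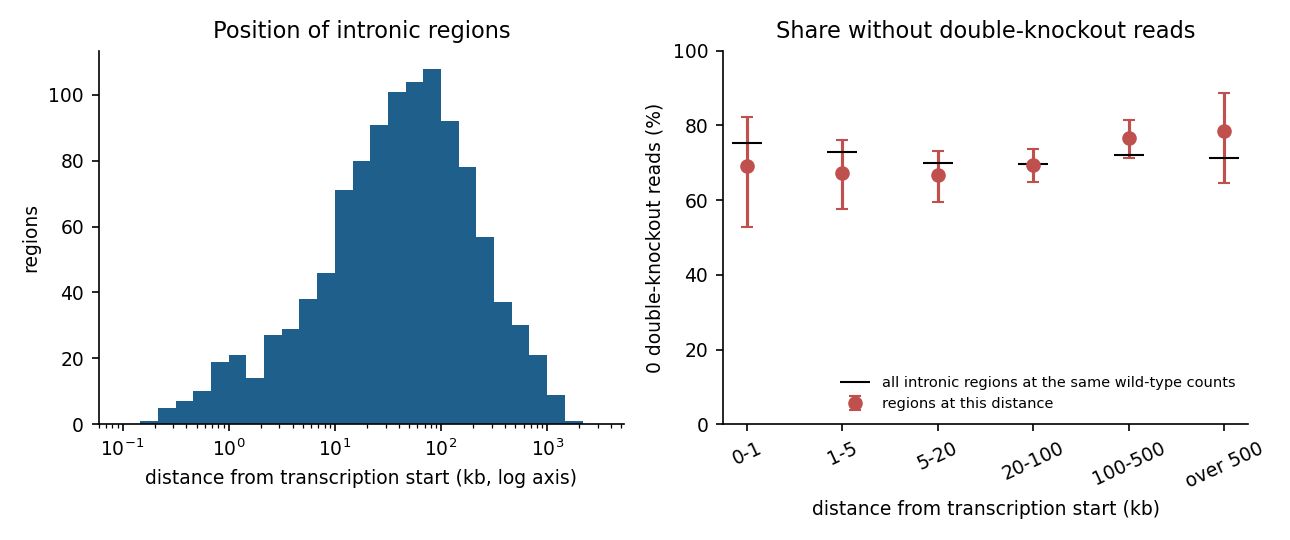
Left, number of intronic regions by the deposited distance from the transcription start (kb, log axis). Right, share of regions with no double-knockout reads by distance (points, with exact 95% binomial intervals) beside the share of all intronic regions at the same wild-type counts (short lines). The share runs from 66.7% at 5 to 20 kb to 78.4% beyond 500 kb, and the intervals overlap.

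As in the whole table, reads in introns were nearly all from wild type. Wild-type counts ran from 15 to 6724 with a median of 35 (quartiles 22 and 73), and double-knockout counts from 0 to 398 with a median of 0 and an upper quartile of 1. The sums were 91379 and 3203. Those sums are not sequencing depth, since the table holds no library totals. In the authors' ratio, wild-type reads per double-knockout read are multiplied by 0.825, and folds below carry the same factor. On the sums, wild type was 23.5-fold higher (95% interval 22.7 to 24.4, counting error only), against 17.5-fold (17.3 to 17.7) over all listed regions. None of the 1097 regions had a double-knockout count at or above that of wild type, and the same holds for all listed regions, so the list has a single direction and the direction is no finding.

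The double-knockout count was 0 in 778 intronic regions, or 70.9% (exact binomial 95% interval 68.1 to 73.6), against 50.5% of all listed regions. It was 1 to 3 in another 174 and over 3 in 145. With a pseudocount of 0.5 on both counts, log2 of the double-knockout to wild-type ratio had a median of -5.21 (quartiles -6.06 and -4.68), against -4.93 over all regions. The 319 that had reads in both libraries were 3.86-fold to 329-fold lower, at a median of 17.2-fold, where exonic regions with reads in both had a median of 12.4. A count of 0 was given a floor of 3 counts, which makes its fold a lower bound and needs 37 wild-type reads to reach 10-fold. By this measure 514 intronic regions (46.9%) had a fold of 10 or more, against 52.5% of all listed regions. Of the 778 regions at 0, 281 were deep enough to be among the 514. With a floor of 1 count, 1011 regions reached 10-fold.

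**Figure D2:**
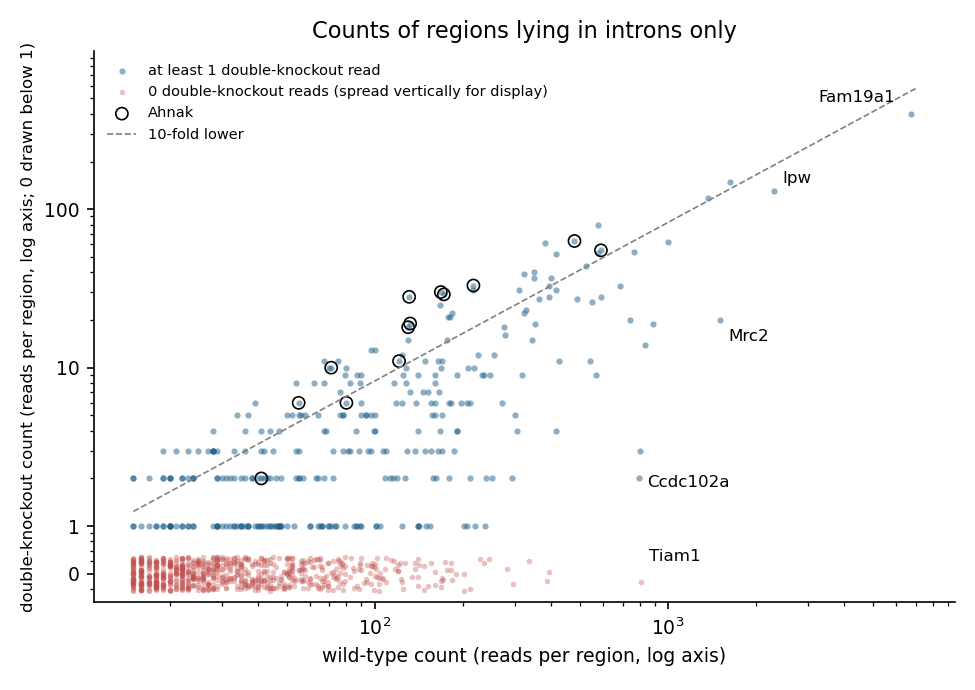
Each point is 1 of the 1097 intronic regions, by its wild-type count (horizontal, log axis) and its double-knockout count (vertical, log axis, with 0 drawn below 1 and spread for display). The dashed line marks 10-fold lower after the authors' constant; the 13 Ahnak regions, circled, lie at 3.86-fold to 16.9-fold.

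Counts of 0 depend on how deep a region is, so the kinds of region were set side by side at equal wild-type count. The other kinds were 1349 regions in coding exons only, 985 crossing from coding exon into intron, and 1358 with no annotated gene. At 50 to 99 wild-type reads, 65.4% of 205 intronic regions had no double-knockout reads (58.4 to 71.9). The share was 23.9% in coding exons only (19.8 to 28.5), 29.2% in regions crossing an exon border (23.8 to 35.1) and 65.0% in regions with no gene (58.7 to 71.0). At 100 to 199 reads the shares were 39.7% (30.9 to 49.0) in introns, 9.17% (5.77 to 13.7) in coding exons, 24.0% (15.8 to 33.7) across borders and 45.3% (36.1 to 54.8) with no gene. Intronic regions thus stood near the unannotated ones, and above both kinds that touch coding sequence by more than counting error from 15 to 99 reads. At 200 to 499 reads the interval in introns (10.4 to 33, around 20%) overlapped those of the other 3 kinds, and at 500 to 999 reads only 1 of 16 intronic regions was at 0.

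Weighted to the wild-type counts of the intronic regions, the share at 0 was 38.0% for coding exons only, 44.9% for border regions, 42.2% for all 3732 exonic regions and 72.2% for regions with no gene, against 70.9% in introns. Weighted in the same way, the fold of the sums was 13.1 in coding exons only, 15.4 across borders and 29.0 with no gene, against 23.5 in introns. Within introns the fold of the sums was larger in shallow regions, going from 137 (89.6 to 222) at 15 to 19 wild-type reads to 39.0 (34.8 to 43.8) at 50 to 99 and 13.7 (12.8 to 14.7) in the 6 regions with 1000 or more. The course was not even, as it was 16.5 (15.4 to 17.7) at 200 to 499 reads and 19.9 (18.1 to 21.9) at 500 to 999. In coding exons only it moved from 23.9 (16.9 to 35) to 15.1 (14.3 to 15.9) and 11.1 (10.1 to 12.2) at 15 to 19, 50 to 99 and 1000 or more reads. Whether the way regions were admitted to the table shaped this course was not tested. Regions are not replicates, and these intervals cover counting error only.

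**Figure D3:**
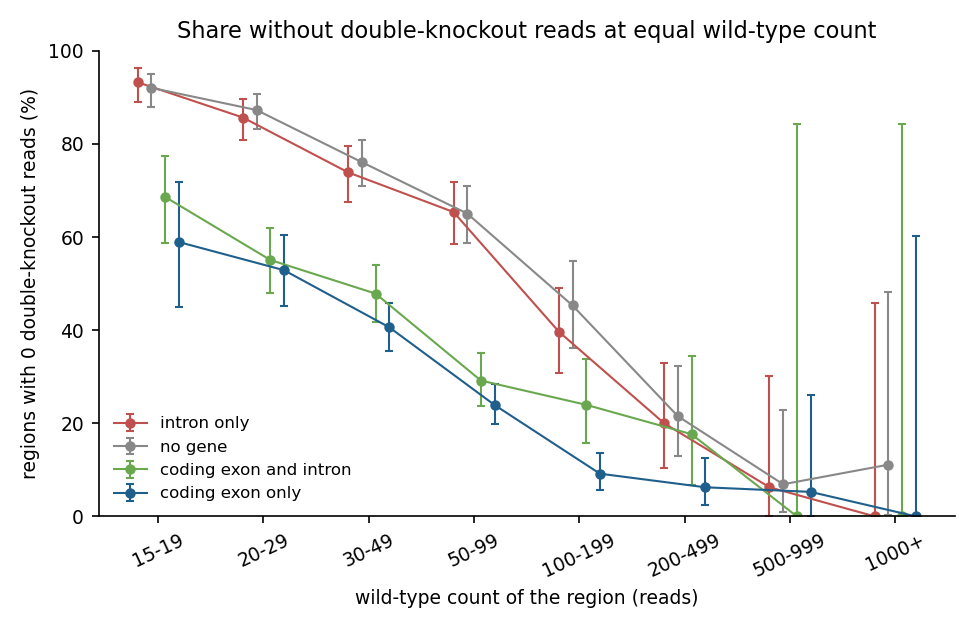
Share of regions with 0 double-knockout reads (vertical, percent) by wild-type count (horizontal) for 4 kinds of region, with exact 95% binomial intervals. At 50 to 99 reads introns (65.4%) and regions with no gene (65.0%) lie together above border regions (29.2%) and coding exons (23.9%).

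By distance from the start, the share at 0 was 69.0% (52.9 to 82.4) within 1 kb, 66.7% (59.6 to 73.2) at 5 to 20 kb, 76.6% (71.2 to 81.5) at 100 to 500 kb and 78.4% (64.7 to 88.7) beyond, where all intronic regions at the same counts had 75.2%, 69.9%, 72.1% and 71.2%. These intervals overlap one another. The fold of the sums did separate, with 43.6 (32.2 to 60.7) within 1 kb and 29.1 (25.5 to 33.4) at 1 to 5 kb against 17.0 (15.9 to 18.2) at 5 to 20 kb, the group that holds the deep regions of Ipw, BC053393 and Gramd4. Beyond, it was 24.6 (23.2 to 26.2) at 20 to 100 kb, 25.9 (24.1 to 27.9) at 100 to 500 kb and 28.3 (23.8 to 33.9) farther out.

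The deepest intronic regions carried a large part of all intronic reads. The 100 deepest held 50.2% of the wild-type reads and 72.1% of the double-knockout reads, and the deepest alone 7.36% and 12.4%. That region lay in Fam19a1 (Tafa1), which encodes a secreted protein resembling chemokines, at chr6:96592979-96593202, 480 kb past the start of a gene of 544 kb. It had 6724 wild-type reads against 398, a 13.9-fold difference (12.6 to 15.5), and at 30 wild-type reads per base it was the densest region of the whole table. Next came Ipw, a non-coding RNA of the imprinted Prader-Willi domain, with 2303 reads against 130 at chr7:59662193-59662558 (14.6-fold, 12.2 to 17.6), where the RefSeq table also places Snhg14, a non-coding host transcript of small nucleolar RNAs. In BC053393, chr11:46579011-46579172 had 1627 reads against 149 (9.01-fold, 7.61 to 10.7). All 3 had clear double-knockout signal, with folds below the 23.5 of the intronic sums.

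Others of the 12 deepest stood far apart in fold at like depth. Mrc2, which encodes a receptor for collagen uptake, had 1505 reads against 20 on chromosome 11 (62.1-fold, 40.0 to 102). Gramd4 had 1368 against 117 on chromosome 15 (9.64-fold, 7.98 to 11.7), an interval below that of Mrc2. The kinase gene Lrrk1 had 1000 against 62 (13.3-fold, 10.3 to 17.5) and Fam20c, whose product phosphorylates secreted proteins, 768 against 54 (11.7-fold, 8.90 to 15.8). Folds were larger in Iqgap2, a cytoskeletal scaffold gene, with 838 against 14 (49.4-fold, 29.3 to 90.7), and in Mtus1, a microtubule-associated tumour suppressor gene, with 800 against 3 (220-fold, 75 to 1069). Ccdc102a had 798 against 2, only 1176 bases past its start (329-fold, 90.8 to 2722), the largest fold of any intronic region with double-knockout reads. Tiam1, which encodes an exchange factor for Rac, had 807 against 0 at chr16:89863258-89863518, which is at least 222-fold lower. Regions of similar wild-type depth thus had from 0 to over 50 double-knockout reads.

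Regions without a double-knockout read were usually shallow. At 200 to 499 wild-type reads, 11 of 55 intronic regions (20%) were at 0, beside 17 of 79 with no gene (21.5%) and 17 of 202 exonic (8.42%). At 500 to 999 reads it was 1 of 16 intronic regions, 2 of 29 with no gene and 2 of 37 exonic. In all, 12 intronic regions at 0 had at least 200 wild-type reads. After Tiam1 these included Gpr133, an adhesion receptor gene, with 394 reads, Arap2 with 388, Spatc1 with 337, the phospholipase gene Plcb1 with 295, Por, which encodes the electron donor of cytochrome P450 enzymes, with 282, and Cnnm2, a gene of magnesium transport, with 245. Rfx4, a transcription factor gene of neural tissue, had 235, the calcium channel subunit gene Cacna2d1 had 229, and Mical3 and Ascc3 had 202 each. These genes were picked with their values in view, and their bounds ran from at least 55.5-fold to at least 222-fold lower. Plcb1 held both kinds of region, as a second intronic region of it on chromosome 2 had 541 reads against 11.

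Of regions with at least 1 double-knockout read, the largest folds after Ccdc102a and Mtus1 rested on a single such read. Zpld1 had 238 against 1 (196-fold, 34.9 to 7786), and the potassium channel gene Kcnq1 220 against 1 (181-fold, 32.2 to 7199). Hpse2, a gene related to heparanase, had 207 against 1, the phosphatase gene Ppm1l 201 against 1, the receptor phosphatase gene Ptprt 154 against 1 and Cep250, a centrosomal linker gene, 149 against 1, with folds from 171 down to 123. The intervals of these 6 overlap, so their order is not resolved.

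At the small end, leaving out the intronic regions whose mean of both counts was below the median, 4 of the 8 smallest folds were in Ahnak. The others were Sall4, a pluripotency transcription factor gene, with 67 reads against 11 (5.02-fold, 2.64 to 10.5), and the phospholipase-like gene Plcxd3 with 381 against 61 (5.15-fold, 3.92 to 6.87). Phactr4, a regulator of protein phosphatase 1 and actin, had 39 against 6 (5.36-fold, 2.25 to 15.5), and Prr16 had 167 against 25 (5.51-fold, 3.61 to 8.76). The upper limits for Plcxd3 and Prr16 lie below the lower limits for Mrc2 and Iqgap2, so these regions, picked from the ends of the range, differed by more than counting error.

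Most host genes had a single intronic region. By gene label, 867 had 1, 73 had 2, 17 had 3, 5 had 4 and 1 had 13. Only 29 regions lay within 1000 bases of another intronic region, in 10 groups, and 14 had an exonic region that near. Regions of 1 gene share their transcript and are not replicates of one another.

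Ahnak, which encodes a giant scaffold protein of the cell cortex, had 13 of the intronic regions, more than any other gene, and 0 exonic ones. All 13 lay within 15.1 kb of each other (chr19:9002609-9017670), 13.4 to 28.3 kb past the start, and each had double-knockout reads. Wild-type counts ran from 41 to 591 and double-knockout counts from 2 to 63, with sums of 2389 and 310 (6.36-fold). The deepest region had 591 against 55 (8.86-fold, 6.72 to 11.9), the next 480 against 63 (6.28-fold, 4.82 to 8.31), and the smallest fold was at 131 against 28 (3.86-fold, 2.55 to 6.03). Most of the Ahnak protein is known to be encoded by a single very long exon. The deposited table annotated all of these regions against the transcript NM_001039959. Whether they are exonic in another Ahnak transcript was not tested, since exon coordinates were not used here. Without Ahnak the fold of all intronic sums was 25.4 in place of 23.5.

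The other genes with 4 intronic regions behaved differently from Ahnak and from one another. In Patz1, a zinc finger repressor gene annotated through a non-coding transcript, 4 regions lay 759 to 2340 bases past the start. In that order they had 101, 24, 148 and 89 wild-type reads against 0, 0, 11 and 8. Its nearer 2 regions thus had no double-knockout reads while the other 2 were 11.1-fold and 9.18-fold lower. In Fig4, a phosphoinositide phosphatase gene, 4 regions filled most of 1799 bases on chromosome 10 (41224735 to 41226533), 76.8 to 78.4 kb past the start. They had 32, 101, 36 and 27 reads against 2, 1, 1 and 0 along the chromosome, a sum of 196 against 4 (40.4-fold). Such a run of neighbouring regions was rare among the intronic ones.

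In Prdm2, a histone methyltransferase gene, the 4 regions were spread over 87.2 kb and had 186 reads against 3 at the far end, then 35 and 16 against 0, and 22 against 2 nearest the start. In Erbb4, a neuregulin receptor gene of over 1 Mb, 4 regions spread over 555 kb had 18, 33, 18 and 15 reads against 0 each, in all 84 against 0 (at least 23.1-fold lower with the floor on the sum). The same held at 3 regions each for Ctnna3, a catenin gene (245 reads in all against 0), Enox1 (185), Rbfox3, a splicing factor gene of neurons (102), Wwc1 (99), Dmd (66), Macrod2 (64) and Ptprn2 (50). In contrast, Ank3, which encodes the membrane scaffold ankyrin G, had 527 against 44 in 1 region and 0 double-knockout reads in its other 2, and Ttc28 had 392 against 33 in 1 of 3. The deepest region thus decided the sums of Ank3 (10.6-fold) and Ttc28 (11.1-fold).

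**Figure D4:**
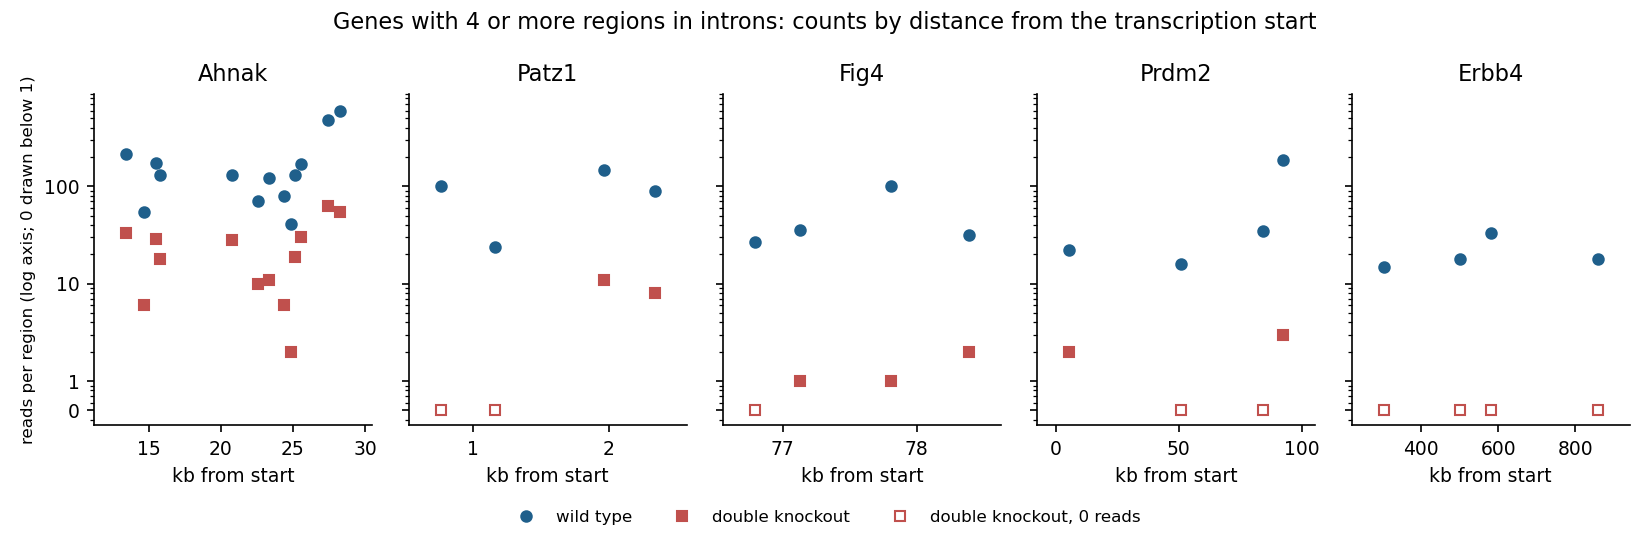
Counts of the intronic regions of Ahnak, Patz1, Fig4, Prdm2 and Erbb4 by distance from the transcription start (kb), on a log axis with 0 drawn below 1. All 13 Ahnak regions have double-knockout reads and none of the 4 Erbb4 regions does.

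The gene itself can be held fixed by comparing introns with exons of the same transcript unit. In 191 genes with both kinds of region, 225 intronic regions held 15542 wild-type and 421 double-knockout reads (30.4-fold, 27.6 to 33.6), and 341 exonic regions 41006 and 2571 (13.2-fold, 12.6 to 13.7). The exonic side takes in UTR regions and regions that cross from exon into intron. The number of double-knockout reads per wild-type read was lower in introns in 109 genes (57.1%, 49.7 to 64.2) and lower in exons in 38. It was equal in 44, each with 0 double-knockout reads on both sides. Had each gene's introns shown the ratio of its exons, 643 double-knockout reads would have been counted there in place of 421. The median gene had 40 wild-type reads in introns and 62 in exons, and a shallow side reaches 0 more easily. With at least 50 on both sides, 44 genes were left, a setting chosen after seeing the data. There the ratio was lower in introns in 30 (68.2%, 52.4 to 81.4) and lower in exons in 11, with folds of 39.3 (32.6 to 47.8) and 11.6 (11.1 to 12.2). Introns were still the shallower side in these 44 genes, with a median of 84.5 wild-type reads against 111.5 in exons. Double-knockout reads were 0 in the introns of 24 genes and in the exons of 7.

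A few genes weighed on these sums. Plec, which encodes the cytoskeletal linker plectin, gave 12879 of the exonic reads, and without it the folds were 30.5 and 16.1. Gramd4 and Lrrk1, deep in introns, had only 16 and 21 exonic wild-type reads, each against 0. Without them, left out after seeing the data, 242 of the 421 intronic double-knockout reads were left and the intronic fold was 44.8.

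Passing over Rik names, which left out 9530052E02Rik, the 6 genes with the most wild-type reads on their shallower side are described next. Zmynd8, a chromatin reader gene, had 305 against 4 in its intronic region (62.9-fold, 24.3 to 232) and 385 against 28 over 5 exonic ones (11.3-fold, 7.72 to 17.3), intervals that do not overlap. In Plec the single intronic region had 157 against 5 (25.9-fold, 10.9 to 80.9), and its 26 exonic regions were 9.37-fold lower (8.81 to 9.96). Mical3, which encodes an enzyme that oxidises actin, had 202 against 0 in introns (at least 55.5-fold) and 396 against 21 in exons (15.6-fold, 10 to 25.4), so its bound lies above the exonic interval. In Myo18a, an unconventional myosin gene, 262 against 9 in introns (24.0-fold, 12.5 to 53.1) and 217 against 11 in exons (16.3-fold, 8.91 to 33.1) could not be told apart. Kcnq5, a potassium channel gene, had 252 against 9 in introns (23.1-fold, 12 to 51.1) beside 142 against 1 in exons (117-fold, 20.7 to 4658), and in Cep250 the folds were 123 and 53.6, so the order was not resolved in either. Of these 6, Zmynd8, Plec and Mical3 were thus resolved, each with the larger fold in introns.

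**Figure D5:**
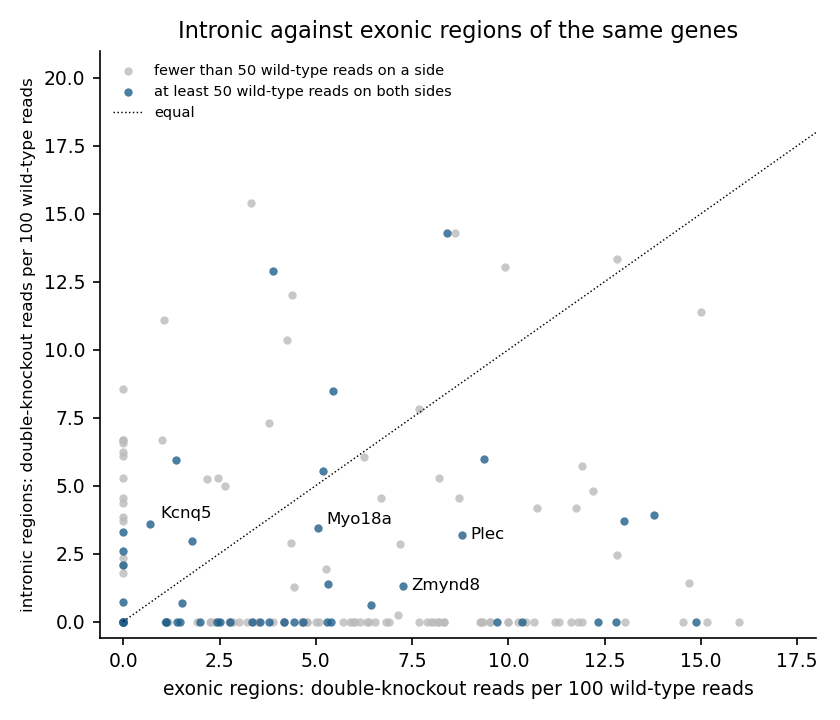
Double-knockout reads per 100 wild-type reads in the exonic regions (horizontal) and intronic regions (vertical) of 191 genes with both. Points below the dotted line have the lower ratio in introns (109 genes, against 38 above it); blue points have at least 50 wild-type reads on both sides.

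Another annotated gene was present at 67 intronic regions by the RefSeq table, a long non-coding RNA gene at 45 and a protein-coding gene at 17. Of these 67, 40 (59.7%) had no double-knockout reads, where 68.0% of all intronic regions at the same counts had none. The deepest after Ipw was in Pcnxl2, with 415 reads against 31 at the non-coding Gm46061. Which of the overlapping genes gave the reads cannot be told apart, as the counts are not stated to use strand. Without these 67 regions the share at 0 was 71.7%.

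Gene groups were taken from lists chosen for this work and are described against all 1097 intronic regions, with 70.9% at 0 and 514 at least 10-fold lower. Chromatin and DNA methylation genes had 7 regions in 7 of 76 genes, all at 0, against 71.9% at the same counts. The deepest were the histone methyltransferase gene Mll3 (Kmt2c) with 97 reads, the remodeller gene Smarca4 with 59 and the demethylase genes Kdm5b with 52 and Kdm4b with 49. That list had exonic regions in 34 genes, so it entered the table mostly through exons.

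Genes of cell adhesion and guidance, many of them very long, were also represented. Axon guidance genes had 17 regions in 15 of 68 genes, 13 of them at 0. These included the ephrin gene Efnb2 (90 reads), the semaphorin receptor gene Plxnd1 (72) and the netrin receptor gene Dcc (56 and 20), while Slit1, a gene of a repulsive guidance ligand, had 87 against 9 (7.97-fold, 4.01 to 18) and 23 against 0. Receptor tyrosine phosphatases had 9 regions in 6 of 19 genes, 7 at 0, with Ptprt at 154 against 1 and 16 against 0, Ptprb at 125 against 9 (11.5-fold, 5.84 to 25.6), Ptprm at 59 and Ptpro at 24 against 0. In cadherins and protocadherins 4 of 9 regions, in 7 of 42 genes, were at 0. Pcdh15 had 179 against 2 and 50 against 1, Cdh8 164 against 11 (12.3-fold, 6.69 to 25.1), Cdh18 124 and 38 against 0 and Fat3 76 against 5. For guidance and phosphatase genes the share at 0 (76.5% and 77.8%) was near that of intronic regions at their counts (77.1% and 77.4%), and for cadherins it was 44.4% where such regions had 61.9%.

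Ion channel genes had 22 regions in 19 of 78 genes and exonic regions in only 6. Of the 22, 15 were at 0 (68.2%, against 65.4% at the same counts) and 12 were at least 10-fold lower. Kcnd3, a voltage-gated potassium channel gene, had 576 against 53 in 1 region (8.96-fold, 6.76 to 12.1) and 38 against 0 in another. Cacna2d1 had 229 against 0, and Kcnq5 232 against 9 and 20 against 0. The group's summed fold, 23.6, was near the 23.5 of all intronic regions, but the deeper Kcnd3 region gave 53 of its 76 double-knockout reads.

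Signalling and stem cell lists had few intronic regions. Wnt genes had 5 in 5 of 57 genes. Porcn, which encodes the enzyme that acylates Wnt ligands, had 310 against 31 (8.25-fold, 5.69 to 12.3), Rnf43, a brake on Wnt receptors, 93 against 5 (15.3-fold, 6.34 to 48.4), and the receptor genes Ror2 and Ror1 57 and 29 against 0. The insulin, PI3K and mTOR list had 3, among them Phlpp1 (66 against 0) and Inppl1 (35 against 1). In the m6A machinery the intronic regions were those of Wtap, a subunit of the writer complex (63 against 0), and the demethylase gene Fto (29 and 17 against 0, 15 against 2). Pluripotency genes had 4 regions in Esrrb (146 against 7, 17.2-fold, 8.14 to 43.5), Sall4 (90 against 9 beside the 67 against 11 above) and Nr5a2 (85 against 0). Only 1 of these 4 was at 0, where 58.9% of intronic regions at the same counts were. The 2 Sall4 regions lie within 352 bases and are not separate places.

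Imprinted genes had 5 regions in 4 of 42 genes. Kcnq1 (220 against 1) and Igf2 (141 against 1, 116-fold, 20.5 to 4626) were the deepest, followed by Ppp1r9a (34 against 1 and 20 against 0) and the non-coding RNA Airn (28 against 0). Together they held 443 wild-type reads against 3, and 2 of the 5 were at 0 (40%, against 61.0% at the same counts). Ipw, with 2303 reads against 130, was not on that list and would outweigh these sums. Known host genes of small RNAs had 4 regions, in Ctdspl (43 against 0), Evl (42 against 3) and Dnm3 (20 and 19 against 0). With 3 to 5 regions in most of these lists, a single region moves any share of the list.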

How the data were processed

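The authors deposited 1 table of 7562 rows holding 6697 distinct regions, used here each with its gene annotation. Its whole-number counts per region were deposited without a stated normalization, 1 for wild type and 1 for double knockout, taken here as those of the m6A libraries, the only ones whose titles give the assay. The deposited ratio is the authors' fold (constant 0.82478675 to 0.82478694), blank at 0 double-knockout reads. The deposited signal, read density, equals the wild-type count over end minus start plus 1. The deposited distance to the transcription start is used as a score in bases. The submitters' processing notes list Bowtie2, DESeq and mm9 without a role. How regions were called and entered is not given in the sources used here.

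Summaries were computed in Python 3.11.15 with scipy 1.17.1, with pseudocount 0.5, a floor of 3 counts for 0, and exact Clopper-Pearson intervals at 95%. A count of 0 has an exact Poisson upper limit of 3.69. Amplified reads lacking molecular identifiers are not separate molecules, so every interval or floor covers counting error only. No test was made, as each group has 1 library. Summaries were tested on simulated data. The members, gene lists and rules were chosen with earlier results of these data known. Regions named were the 12 of highest wild-type count, the 8 largest folds with reads, the 8 smallest at or above the median mean count, the 6 densest, genes with at least 4 regions, 6 genes with both kinds of region and up to 4 genes per list, passing over Gm, LOC and Rik names. Genes with 3 regions, regions near start sites or under another gene and deep regions at 0 were named after their values were seen. The planned motif count over all regions needed a genome and was replaced by the start-site windows. Some of the regions and 1 gene list these rules name are not reported here.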

Additional observations from a re-analysis of the deposited data

How the results depend on the processing

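No paired analysis was possible because each group had 1 library. The share at 0 (70.9%) was 48.5% in the regions whose mean of both counts reached the median of all listed regions, 57.3% with at least 30 wild-type reads and 78.9% when 1 read was allowed; the first 2 leave out the shallow regions. In the same 2 subsets the median log2 value (-5.21) was -6.26 and -5.87 and the fold of the sums (23.5) was 20.3 and 21.6. That median was -6.20 with a pseudocount of 0.25, -3.58 with 2 and -5.49 without the authors' constant. The fold of the sums was 28.5 without that constant, 24.4 with 1 region per gene, 26.5 without the 10 deepest regions and, chosen after seeing the data, 25.4 without Ahnak. The number at least 10-fold lower (514) was 1011 with a floor of 1 count and 450 with the floor at 3.69. The share of genes with the lower ratio in introns (57.1%) was 68.2% with at least 50 reads on both sides, an added setting. The motif count over all regions was not run. Depth limits shallow regions most: at 15 wild-type reads, 0 double-knockout reads set a bound of only 4.12-fold.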
